A study of Mus musculus with 6 samples.

Results

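The Ly6 genes on the array are represented by 8 probe sets of 8 genes, out of 22626 probe sets that are not controls and 12393 genes with a single symbol. They were chosen by name: every probe set whose annotation gives 1 gene symbol and whose symbol begins with Ly6, namely Ly6d, Ly6f, Ly6g2, Ly6g6c, Ly6g6d, Ly6h, Ly6i and Ly6m. The family was singled out because Ly6d stood high in livers given TFEB, so the injected against not-injected values of its members are given here as a description, without p-values, and the number of members called stands only beside that over all probe sets. One further probe set, annotated with several Ly6 symbols, was left out by the rule. No probe set carried the symbol of Ly6a, Ly6e or another of the remaining Ly6 genes alone, so these genes were not analysed here.

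Liver RNA of C57 mice, all wild type and 1 month of age, was measured with 1 array per mouse. The TFEB-injected group held 3 mice that had received an adenoviral vector to overexpress TFEB, a transcription factor of lysosomal and autophagy genes, and the not-injected group held 3 mice. No group with an empty vector is named, so injection, vector and TFEB cannot be told apart, and the labels give neither the promoter of the transgene, nor the dose, nor the time between injection and harvest. In whole liver, a change in the number of cells of a type and a change in RNA per cell cannot be told apart.

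Ly6 proteins are small cell-surface proteins with a fold of disulfide-bonded loops, called the three-finger or LU domain, and most are held in the outer membrane by a glycosylphosphatidylinositol (GPI) lipid anchor. In the mouse most of their genes lie in a tandem cluster on chromosome 15, and a smaller group lies in the class III region of the major histocompatibility complex on chromosome 17. Several are used as surface markers of blood cells and of their progenitors. Ly6d is known as a marker of lymphoid progenitors committed to the B lineage and is also made by squamous epithelium. Of 21 protein-coding Ly6 genes in the RefSeq table of assembly GRCm38.p6, 15 lie on chromosome 15 and 6 on chromosome 17. The members analysed are 6 genes of the chromosome 15 cluster and 2 of the chromosome 17 cluster.

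Values are log2 expression values per probe set, so a difference of 1 is a doubling. Levels of different probe sets are not comparable with each other, but their place within an array shows how dim they are. The lower quartile of an array lay between 5.46 and 5.56 and its median between 7.11 and 7.15. Albumin, encoded by Alb, read 15.09, 15.04 and 15.03 in injected livers, against 15.06, 15.07 and 15.05 in not-injected livers. Of 14 hepatocyte markers 1 was called higher and 3 lower by limma, where 13.8% of all genes were called higher and 13.3% lower. The 3 lower were Tat, tyrosine aminotransferase, which fell by 1.45 ± 0.095 (adjusted p = 0.000139), Hp, haptoglobin, which fell by 0.73 ± 0.083 (adjusted p = 0.00118), and Fga, a fibrinogen chain, which fell by 0.29 ± 0.065 (adjusted p = 0.0155). The apolipoproteins Apoa1 and Apoa2 differed by -0.10 ± 0.060 and 0.03 ± 0.058 (adjusted p = 0.264 and 0.693). The 1 called higher did not pass without injected replicate 1 or 3 or not-injected replicate 1 or 3. The mean log2 value of the list was 14 in every injected liver and 14.2 in every not-injected liver. The probe set of Tfeb read 7.48, 7.78 and 7.46 in injected livers, against 7.50, 7.59 and 7.47 in not-injected livers (limma adjusted p = 0.723). The sources used here do not say whether its probes can detect the transgene, so this value does not check the labels. Across probe sets, which are not independent replicates, arrays correlated at 0.992 to 0.997 among injected livers, 0.997 to 0.998 among not-injected livers and 0.974 to 0.988 between the groups. All 18 probe sets of hybridisation spike-ins were lower on every injected array than on any not-injected array, with a median difference of -0.32, and the same held for 23 of 24 poly-A spike-in probe sets, with a median of -0.44. Their part in the Ly6 differences was not tested.

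Ly6d was the 1 member with a large difference. It read 12.4, 10.7 and 12.4 in injected livers, against 6.24, 6.95 and 6.81 in not-injected livers. All injected livers lay far above all not-injected livers, and injected replicate 2 was the lowest of the injected ones. The means were 11.8 ± 1.03 in injected livers and 6.67 ± 0.38 in not-injected livers (SD, n = 3 each), a difference of 5.18 ± 0.46 (SE), or 36.3-fold. Set against the mean of the not-injected livers, the single injected livers were 54.9-fold, 15.9-fold and 54.5-fold higher. Over all probe sets 5 had a larger difference, in either direction. Because the spread between injected livers came mainly from replicate 2, the difference was 5.77 ± 0.19 without it, and it lay between 4.88 and 5.32 when any other array was left out. In not-injected livers Ly6d read above the lower quartile of every array but below the median.

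Ly6g2, a gene of the same cluster, was the brightest member in not-injected livers. It read 9.58, 10.02 and 9.58 in injected livers, against 10.3, 10.2 and 10.2 in not-injected livers. Every injected liver lay below every not-injected liver, and injected replicate 2, which was lowest in Ly6d, was also the nearest to the not-injected values of Ly6g2. The means were 9.73 ± 0.25 in injected livers and 10.2 ± 0.072 in not-injected livers (SD, n = 3 each), a difference of -0.49 ± 0.12 (SE), which is 1.40-fold lower. Without injected replicate 2 this difference was -0.63. The median difference of the spike-ins, given above, was of a similar size and of the same sign, while the median over all probe sets was -0.05. With median centring the Ly6g2 difference was -0.50, and with a second quantile normalisation it was -0.54. The part of the spike-in shift in the Ly6g2 difference was not tested.

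**Figure D1:**
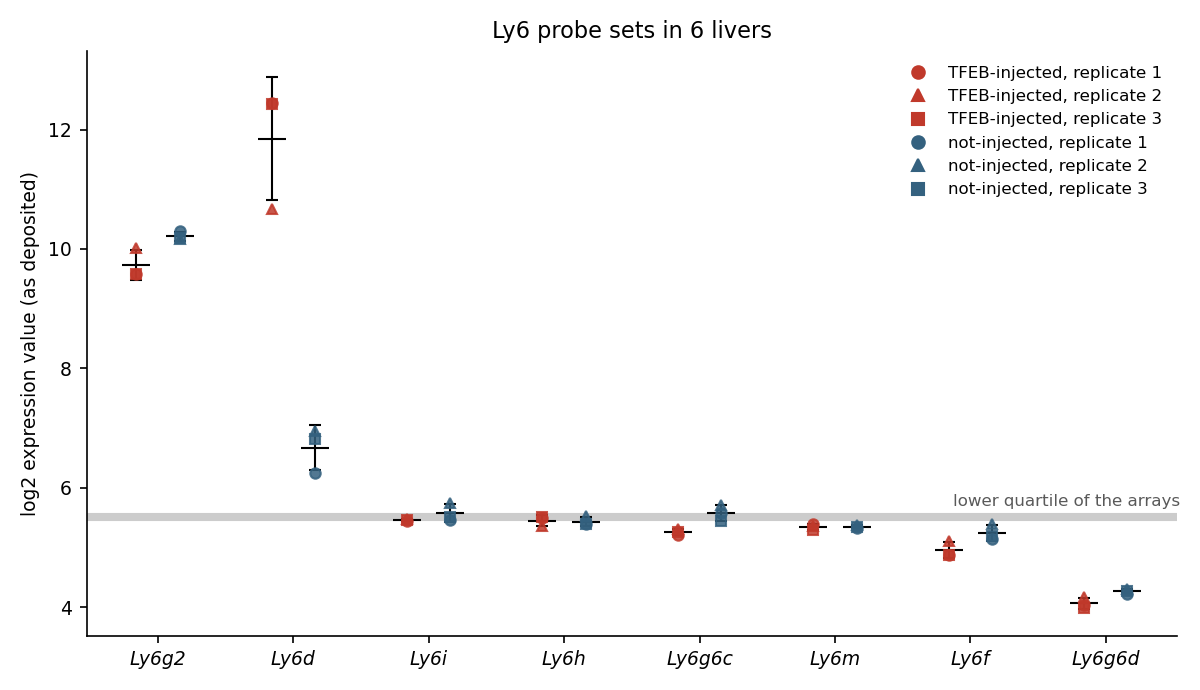
Log2 expression values of the 8 Ly6 probe sets in each liver, with TFEB-injected livers left of not-injected livers, and the mean and SD of 3 arrays as bars. Ly6d stands at 10.7 to 12.4 in injected livers and at 6.24 to 6.95 in not-injected livers, while the 6 probe sets on the right stay near or below the lower quartile of the arrays (grey band).

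The other members of the chromosome 15 cluster were dim in every liver. Ly6i, which is known from cells of the blood lineage, read 5.44, 5.47 and 5.46 in injected livers, against 5.46, 5.75 and 5.51 in not-injected livers. Ly6h, known from brain, where it acts on nicotinic acetylcholine receptors, read 5.48, 5.35 and 5.51 in injected livers, against 5.39, 5.52 and 5.39 in not-injected livers. In both genes the groups overlapped, and the differences were -0.12 ± 0.087 for Ly6i and 0.02 ± 0.075 for Ly6h (SE). Ly6m read 5.39, 5.36 and 5.29 in injected livers, against 5.32, 5.37 and 5.34 in not-injected livers, and its groups overlapped too. Its difference was -0.00077 ± 0.062 (SE), and the signs of Ly6h and Ly6m turned under another normalisation of the arrays or with 1 array left out, so neither has a settled direction. Ly6f read 4.87, 5.11 and 4.88 in injected livers, against 5.15, 5.39 and 5.18 in not-injected livers. All injected livers were lower, by 0.29 ± 0.098 (SE) on average, although the gap between the nearest livers of the groups was small.

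Both members of the chromosome 17 cluster read lower in injected livers, by small amounts. Ly6g6c read 5.21, 5.31 and 5.26 in injected livers, against 5.58, 5.70 and 5.43 in not-injected livers. Its groups did not overlap, and the means of 5.26 ± 0.053 in injected livers and 5.57 ± 0.14 in not-injected livers (SD, n = 3 each) differed by -0.31 ± 0.084 (SE). Ly6g6d read 4.04, 4.17 and 3.98 in injected livers, against 4.23, 4.30 and 4.27 in not-injected livers. These groups did not overlap either, with a difference of -0.21 ± 0.072 (SE), and Ly6g6d had the lowest values of the 8 probe sets. Ly6m, Ly6f and Ly6g6d read under the lowest of the array quartiles, 5.46, in all 6 livers. Ly6g6c and Ly6h read under the lower quartile of their own array in 4 livers, and Ly6i in 5. For Ly6g6c these included every injected liver. The table holds no detection calls, so it is not known whether these probe sets measured a transcript at all, and their differences are differences of the deposited values only.

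Over the family, 6 of 8 differences were negative, and the median difference was -0.16, beside a median of -0.05 over all probe sets. The groups did not overlap in 5 of 8 members, with injected livers above in 1 and below in 4. Over all probe sets the groups did not overlap in 44.0%, with injected livers above in 18.1% and below in 25.9%. By limma at an adjusted p under 0.05, 3 members were among the called probe sets, Ly6d as higher and Ly6g2 and Ly6g6c as lower, where 25.0% of all probe sets were called, 12.3% as higher and 12.7% as lower. Since the family was picked from this contrast, nothing is read from these counts. They also moved with single arrays: the number of Ly6 probe sets called was 1 without not-injected replicate 1 or 2 or without injected replicate 1 or 3, 2 without not-injected replicate 3, and 5 without injected replicate 2. Over all probe sets the count of 5662 fell to 3292 and 3259 without not-injected replicate 2 and 3, and to 3447 and 3744 without injected replicate 1 and 3.

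**Figure D2:**
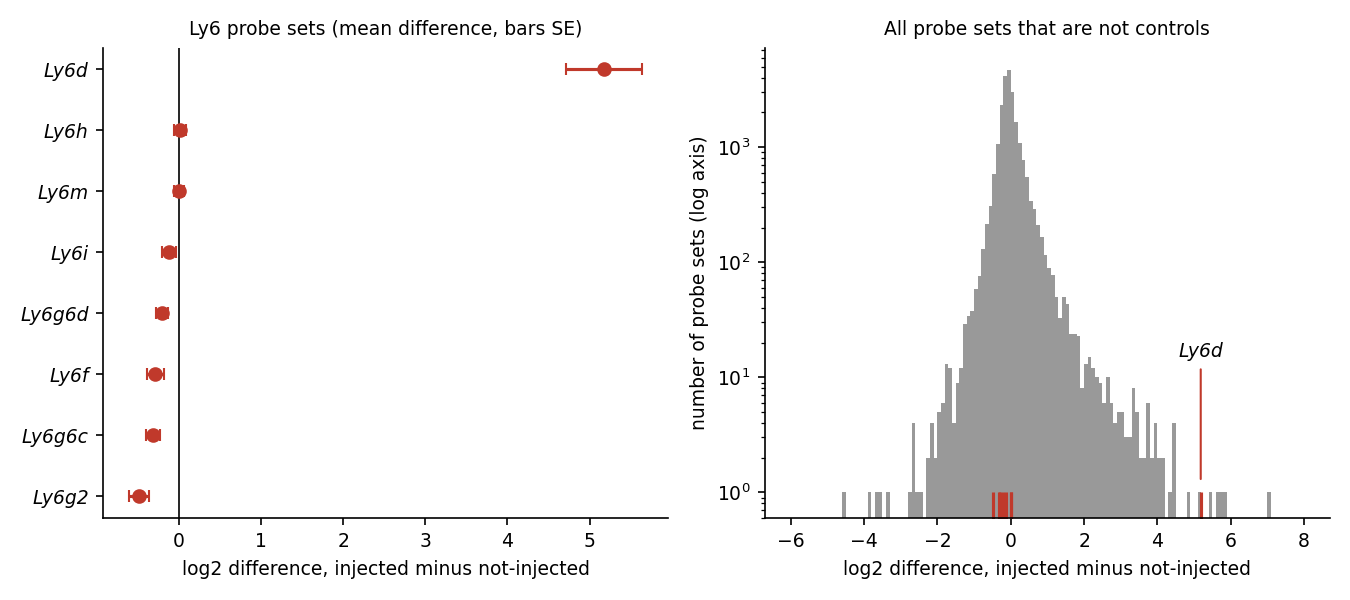
Left, the log2 difference (injected minus not-injected mean, bars SE) of each Ly6 probe set. Right, the differences of all 22626 probe sets on a log count axis, with Ly6 probe sets as red ticks; Ly6d lies at 5.18, in the far right tail, and the other members between -0.49 and 0.02.

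The measured neighbours of Ly6d on chromosome 15 did not share its difference. Of 37 RefSeq genes from the first to the last Ly6 gene, 7 had a probe set with a single symbol, of which 6 were Ly6 genes. Ly6d lies at the start of this stretch of 807 kb. The 5 genes taken beyond its far end start 895 to 1148 kb from Ly6d. Between and beside the Ly6 genes of this cluster, 11 other genes had a probe set with a single symbol. Of these 0 were called by limma, higher or lower, against 27.1% of all genes taken with 1 probe set each. At an unadjusted p under 0.05 there were 5. Lynx1, a neighbour that encodes another three-finger protein and acts on nicotinic receptors, had the largest difference of the 11. It read 7.38, 6.85 and 7.88 in injected livers, against 6.67, 6.98 and 6.60 in not-injected livers, with overlapping groups, a difference of 0.62 ± 0.24 (SE) and a limma adjusted p of 0.0965. The remaining neighbours lay between -0.25 and 0.07. Among them, Psca, which encodes a GPI-anchored protein of the same fold, differed by -0.23 ± 0.089 (adjusted p = 0.098), and Slurp1, a secreted member of the fold, by -0.02 ± 0.087 (adjusted p = 0.895). Of 11 neighbours of the chromosome 17 cluster, 1 was called higher and 1 lower. Abhd16a, which encodes a lipase of phosphatidylserine, rose by 0.25 ± 0.073 (limma adjusted p = 0.0411), and Gpank1 fell by 0.43 ± 0.077 (adjusted p = 0.00688). Abhd16a did not pass when any single array other than injected replicate 2 was left out.

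**Figure D3:**
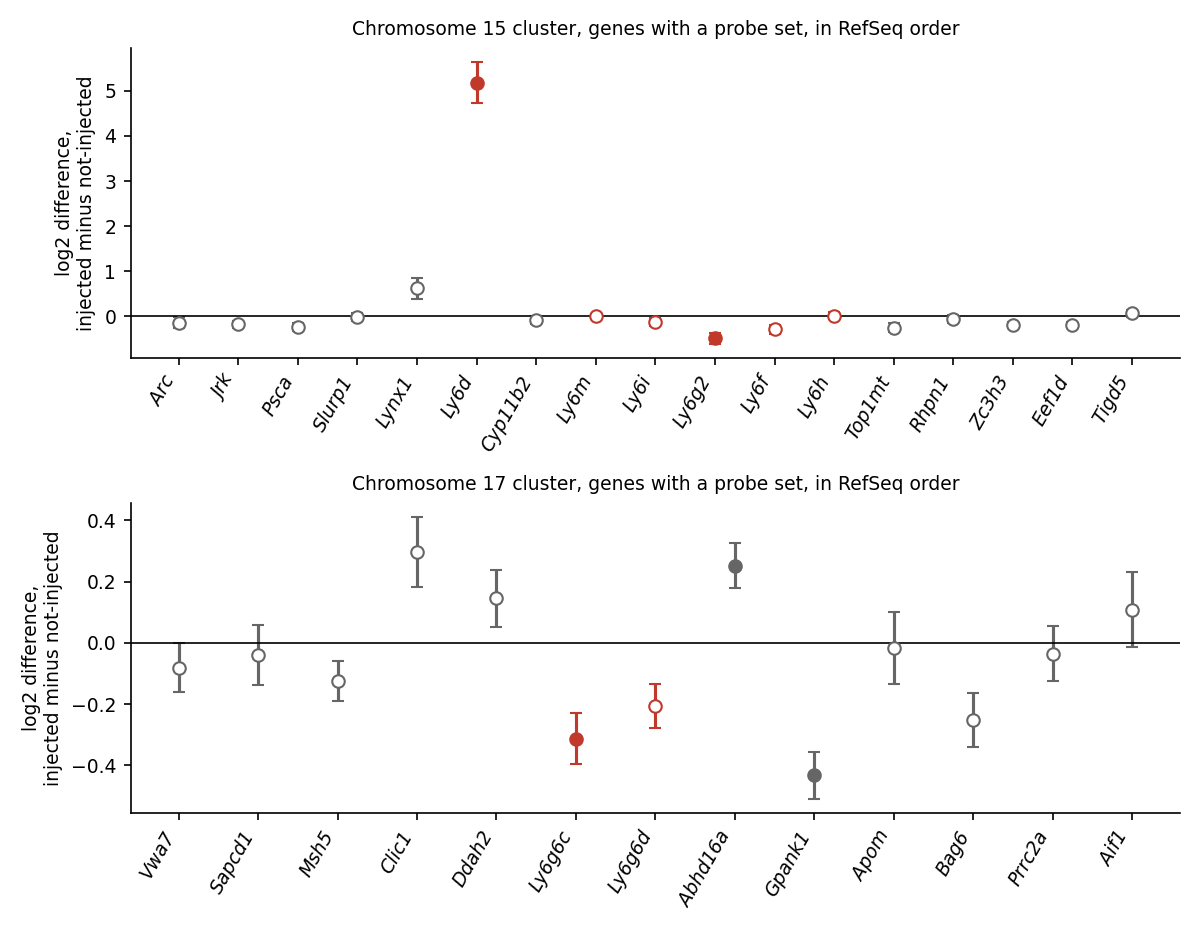
Log2 difference (injected minus not-injected, bars SE) of the genes with a single-symbol probe set in and beside the Ly6 clusters of chromosomes 15 and 17, in the order of the RefSeq table. Red marks Ly6 genes and filled points passed limma at an adjusted p under 0.05; on chromosome 15 Ly6d stands at 5.18 and the other genes lie between -0.49 and 0.62.

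Other genes of the three-finger family gave no called member, where 27.1% of all genes were called. Of 13 measured relatives outside the Ly6 symbols, among them Cd59a, an inhibitor of complement, and Plaur, the receptor of urokinase, 0 were called by limma in either direction, with 4 at an unadjusted p under 0.05. Their differences ran from -0.23 to 0.62 around a median of -0.09, beside -0.05 over all genes. The lowest and highest were those of Psca and Lynx1. These genes and Slurp1 were also among the neighbours of Ly6d above, so the 2 sets overlap. Without injected replicate 2, 1 relative was called higher and 2 lower. Of these 13 probe sets, 7 read under 5.46, the lowest array quartile, in all livers.

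Genes that build, attach and remodel the GPI anchor held both higher and lower members. Of 22 measured, 8 were called higher and 2 lower, where 13.8% of all genes were called higher and 13.3% lower, and their median difference was 0.06. The number called higher was 5 without not-injected replicate 3, and the number called lower was 3 without injected replicate 2 and 1 when any other single array was left out. Pigp, a subunit of the enzyme that starts anchor synthesis, rose 4.58-fold. It read 11.1, 11.5 and 10.8 in injected livers, against 9.01, 8.89 and 8.97 in not-injected livers (difference 2.20 ± 0.15, limma adjusted p = 0.000159). Pgap2, which acts in the remodelling of the lipid part of the anchor, rose 2.55-fold, with 11.7, 11.5 and 11.5 in injected livers, against 10.1, 10.2 and 10.2 in not-injected livers (difference 1.35 ± 0.083, adjusted p = 0.000118). In neither gene was injected replicate 2 the lowest injected liver. Pgap4, a Golgi enzyme that adds a sugar to the anchor, was the one of the named 3 that followed Ly6d in this respect. It read 7.16, 5.72 and 7.15 in injected livers, against 5.20, 5.34 and 5.37 in not-injected livers, a difference of 1.37 ± 0.35 (limma adjusted p = 0.0273). Its not-injected values lay under the lower quartiles of their arrays, so the size of this difference is not exact. It did not pass when any single array other than injected replicate 2 was left out.

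The genes whose values over the 6 arrays were most like those of Ly6d were Gpnmb, Prss8, Slpi, Epdr1 and Gnai1. They were the 5 highest by Pearson correlation among 75 genes whose range over the arrays was at least 0.5 of that of Ly6d, with r from 0.994 to 0.997 over 6 arrays. The arrays form separate groups, so r mostly reflects the gap between the groups, together with the place of injected replicate 2, and no p is given. Gpnmb, a transmembrane glycoprotein of lysosomes and melanosomes, read 13.4, 11.1 and 13.5 in injected livers, against 5.53, 5.88 and 5.39 in not-injected livers. Slpi, a secreted inhibitor of serine proteases, read 12.5, 11.2 and 12.95 in injected livers, against 7.97, 8.10 and 8.10 in not-injected livers. In both, as in Ly6d, injected replicate 2 was the lowest of the injected livers. Prss8, a GPI-anchored serine protease of epithelia also called prostasin, read 10.2, 9.29 and 10.4 in injected livers, against 7.22, 7.56 and 7.27 in not-injected livers. Gnai1, an inhibitory G protein subunit, read 10.5, 9.15 and 10.4 in injected livers, against 6.32, 6.38 and 6.0 in not-injected livers. Epdr1, which encodes a lysosomal lipid-binding protein, read 9.14, 8.19 and 8.93 in injected livers, against 5.18, 5.31 and 5.36 in not-injected livers. All 5 genes were far higher in every injected liver, and the not-injected values of Epdr1 lay under the lower quartiles of the arrays. Injected replicate 2 minus the mean of the other injected livers was -1.78 for Ly6d, in log2 units, and ran from -0.84 for Epdr1 to -2.31 for Gpnmb. Of the 69 genes of this range that were higher in injected livers, 61 had replicate 2 as the lowest injected liver. These genes were chosen by a range set from Ly6d, and the share over all genes is not given here. It is therefore not known whether a low replicate 2 is particular to them, and nothing is read from this count.

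**Figure D4:**
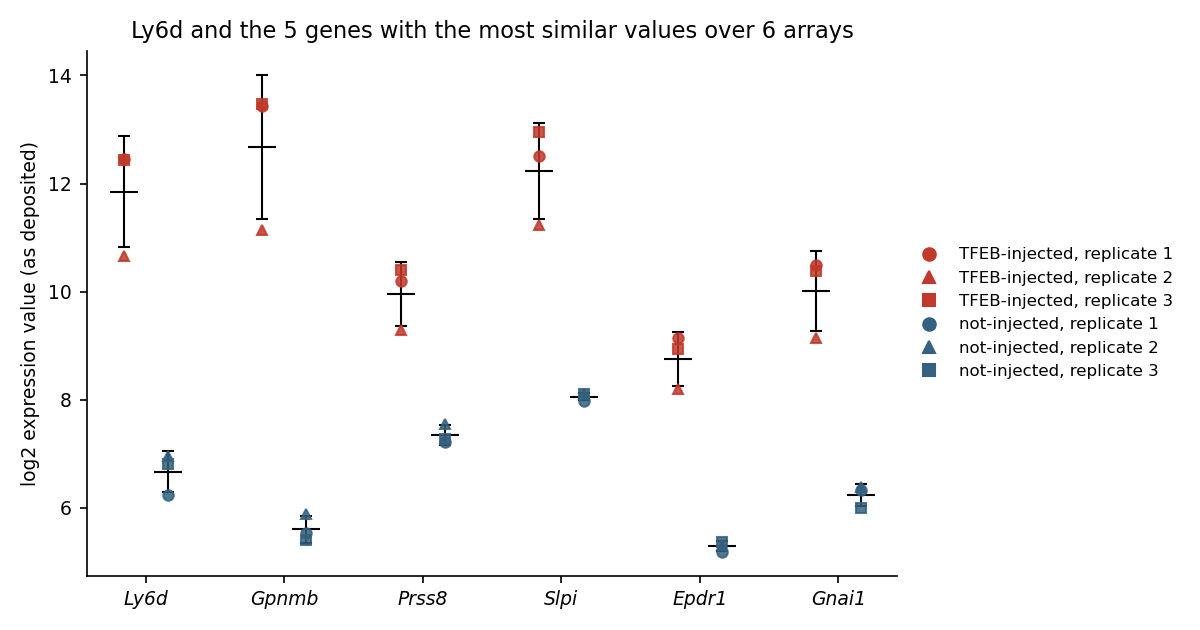
Log2 values of Ly6d and of the 5 genes with the highest Pearson correlation to it over 6 arrays, TFEB-injected left of not-injected, with mean and SD of 3 arrays. In all 6 genes the injected replicate 2 (red triangle) is the lowest injected liver and still lies above every not-injected liver.

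Several cell types that can carry Ly6 proteins were followed through their markers. Of 14 B lineage markers 3 were called higher and 0 lower, where 13.8% of all genes were called higher and 13.3% lower. The median difference of the list was 0.03. The 3 were Blnk, an adaptor of the B cell receptor, at 10.6, 10.2 and 10.7 in injected livers, against 7.47, 7.24 and 7.61 in not-injected livers (3.04 ± 0.15, limma adjusted p = 5.98e-05), Cd74 (0.66 ± 0.081, adjusted p = 0.00163) and Jchain (0.59 ± 0.11, adjusted p = 0.00961). The subunits of the B cell receptor itself did not pass: Cd79a differed by -0.09 ± 0.13 (adjusted p = 0.664) and Cd79b by 0.39 ± 0.17 (adjusted p = 0.133). Ms4a1, which encodes CD20, differed by 0.40 ± 0.17 (adjusted p = 0.114). Over the whole list the mean log2 value was 6.21 to 6.26 in injected livers and 5.88 to 5.96 in not-injected livers. That mean includes Blnk, with its difference of 3.04, while the median difference over the list was 0.03. The part of B lineage cells in the Ly6d difference was not tested.

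Of 18 markers of squamous epithelium 1 was called higher and 0 lower, where 13.8% of all genes were called higher and 13.3% lower. The median difference of the list was -0.12. The marker called higher was Dsp, which encodes desmoplakin and is also made by hepatocytes (0.65 ± 0.15, limma adjusted p = 0.0207). The keratins of basal and differentiated squamous cells were not called: Krt5 differed by -0.12 ± 0.10 (adjusted p = 0.4), Krt14 by -0.16 ± 0.093 (adjusted p = 0.237) and Krt1 by -0.18 ± 0.074 (adjusted p = 0.116). Of the 18 probe sets, 4 read under 5.46, the lowest array quartile, in all livers. The mean log2 value of the list was 6.36 to 6.42 in injected livers and 6.41 to 6.49 in not-injected livers. Without injected replicate 2, 2 of these markers were called higher and 1 lower, and without any other single array 0 were called. Of 12 biliary and progenitor markers only Cd24a was called, as higher (0.88 ± 0.19, adjusted p = 0.0149), but 7 were called higher and 1 lower without injected replicate 2. Cd24a is itself a small GPI-anchored protein. The keratins Krt7, Krt19 and Krt8 differed by 0.0022 ± 0.098, -0.22 ± 0.085 and 0.57 ± 0.23 (adjusted p = 0.99, 0.101 and 0.107). Cd24a did not pass without not-injected replicate 1 or 2. The part of squamous, biliary or progenitor cells in the Ly6d difference was not tested.

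Myeloid and endothelial markers, which accompany several Ly6 proteins in the mouse, were set beside the Ly6 values. Over all genes, 13.8% were called higher and 13.3% lower. Of 12 neutrophil markers only S100a8 was called, higher by 0.74 ± 0.22 (limma adjusted p = 0.0487), and it did not pass when any one of the not-injected livers was left out, while 1 marker was called lower without injected replicate 2. S100a9 differed by 0.54 ± 0.27 (adjusted p = 0.188) and Mpo by -0.05 ± 0.086 (adjusted p = 0.696). Of 10 monocyte markers 3 were called higher and 1 lower, the higher ones being Cd14 (1.60 ± 0.19, adjusted p = 0.00137), Lyz2 (0.93 ± 0.13, adjusted p = 0.0025) and Ms4a6c (0.53 ± 0.13, adjusted p = 0.0208). The 1 called lower did not pass without injected replicate 1 or 3 or not-injected replicate 3. Ms4a6c did not pass without injected replicate 1 or not-injected replicate 2 or 3. Ccr2, which marks inflammatory monocytes, differed by 0.44 ± 0.14 (adjusted p = 0.0571), Itgam by -0.05 ± 0.062 (adjusted p = 0.559) and Csf1r by 0.17 ± 0.10 (adjusted p = 0.258).

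Of 18 endothelial markers 6 were called higher and 0 lower, where 13.8% of all genes were called higher and 13.3% lower. The 6 included Lyve1 (2.10 ± 0.15, limma adjusted p = 0.000209), Stab2 (0.96 ± 0.14, adjusted p = 0.00318) and Emcn (0.67 ± 0.11, adjusted p = 0.00447). Pecam1 was also called (0.41 ± 0.099, adjusted p = 0.0225), while Cdh5 and Kdr differed by 0.13 ± 0.091 and 0.22 ± 0.079 (adjusted p = 0.319 and 0.0812). The count of 6 was 3 without injected replicate 1 or not-injected replicate 2 or 3. Of 11 Kupffer cell markers 2 were called higher, Cd68 (1.74 ± 0.33, adjusted p = 0.00839) and Cd5l (0.49 ± 0.10, adjusted p = 0.0135), and 2 lower, Cd163 (-3.62 ± 0.24, adjusted p = 0.000131) and Marco (-0.80 ± 0.20, adjusted p = 0.0245). Clec4f and Vsig4 differed by -0.11 ± 0.13 and 0.42 ± 0.18 (adjusted p = 0.545 and 0.13). The number higher was 1 without not-injected replicate 2 and 4 without not-injected replicate 1, and the number lower was 1 without any single array other than injected replicate 2. Of 13 T and NK cell markers 0 were called by limma and 2 had an unadjusted p under 0.05, while 1 was called lower without injected replicate 2 and 1 higher without injected replicate 3. Cd3d, Cd3e and Cd3g differed by 0.03 ± 0.084, -0.20 ± 0.066 and -0.07 ± 0.096 (adjusted p = 0.808, 0.0672 and 0.644). Of 11 stellate cell and fibroblast markers 1 was called lower, Reln (-0.38 ± 0.11, adjusted p = 0.0439), which passed in the smaller sets only when injected replicate 1 was the array left out, and 5 were called higher without injected replicate 2. Lrat differed by -0.28 ± 0.27 (adjusted p = 0.476) and Des by 0.02 ± 0.061 (adjusted p = 0.82). The part of these cell types in the Ly6 values was not tested.

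Interferon induces some Ly6 genes in mouse cells, so interferon response genes were set beside them. Of 31 measured, 3 were called higher and 11 lower, where 13.8% of all genes were called higher and 13.3% lower. The median difference of the 31 was -0.17. The number lower was 6 without not-injected replicate 3 and 7 without not-injected replicate 2, and the number higher was 1 in each case, and 2 without injected replicate 1. Usp18, a protease that removes the ubiquitin-like Isg15, rose by 2.17 ± 0.13 (limma adjusted p = 0.000123). Ifit1, an antiviral RNA-binding protein, fell by 1.11 ± 0.12 (adjusted p = 0.000932) and Oasl1 by 0.80 ± 0.12 (adjusted p = 0.00404). In the same livers Ly6g2, Ly6f, Ly6g6c and Ly6g6d read lower, and Ly6d higher. The probe set annotated with both Ly6c2 and Ly6c1, outside the rule, read higher by 0.27 ± 0.079 (SE). Ly6f and Ly6g6d were dim in every liver. The part of interferon in the Ly6 values was not tested.

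**Figure D5:**
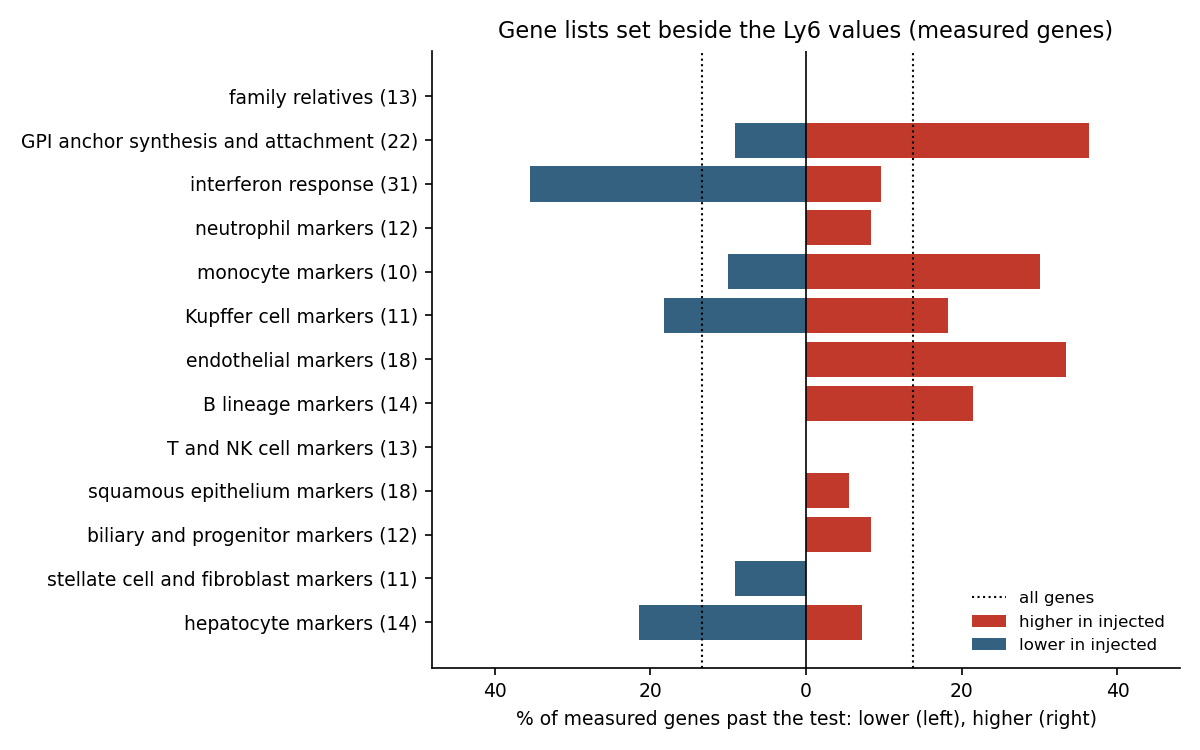
Percent of the measured genes of each list called higher (right) or lower (left) in TFEB-injected against not-injected livers by limma at an adjusted p under 0.05, with dotted lines at 13.8% higher and 13.3% lower, the shares over all genes. The GPI anchor list stands at 8 higher and 2 lower of 22 genes, the interferon list at 3 higher and 11 lower of 31, and the relatives of the Ly6 family at 0 of 13.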

How the data were processed

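Liver RNA of 6 mice was measured on Affymetrix mouse expression arrays. The authors deposited log2 values per probe set; per the submitters' processing notes, affy and RMA were used (no version given), and filters are not given in the sources used here. RMA usually equalises arrays and compresses low values, so a shift of all transcripts would not be seen; the number of arrays limits the precision. Of 22690 probe sets 64 were controls and 20380 had 1 symbol; gene IDs of 20351 were found in the RefSeq table of GRCm38.p6, which changed 0 symbols. Sequences of Ly6d were not used here.

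Differences were fitted with limma 3.58.1 in R 4.3.3 (lmFit, eBayes, no covariate, no filter), two-sided, with Benjamini-Hochberg adjustment over 22626 probe sets; prior degrees of freedom were 3.61. A gene in a list was read from its probe set with the highest mean. The fit was tested on simulated data. Arrays are biological replicates per the labels. The members and lists were chosen with earlier results of these data known. Named were all Ly6 probe sets, the 5 genes most like Ly6d, locus neighbours that were called (and others chosen after their values were seen: Lynx1, Psca and Slurp1; of the relatives Cd59a and Plaur, without values), up to 3 called genes of each list with the largest difference, the first 3 measured of each marker list, and Tfeb. Likeness to Ly6a and Ly6e was planned and not run. Alternatives were the replicate block, an intensity trend, no moderation, a filter on dim probe sets, 1 probe set a gene, a second quantile normalisation, centring, array weights and leaving out each array; leaving out arrays in the list counts was added after seeing the data. Python 3.11.15, numpy 2.4.6, pandas 2.3.3 and matplotlib 3.10.9 were used for tables and plots.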

Additional observations from a re-analysis of the deposited data

Results flagged for a closer look

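The probe set annotated with both Ly6c2 and Ly6c1 was left out by the rule of 1 symbol, and it read above the not-injected level in every injected liver. It read 7.62, 7.43 and 7.39 in injected livers, against 7.20, 7.26 and 7.18 in not-injected livers, a difference of 0.27 ± 0.079 (SE). How this difference depends on single arrays or on the processing is not given here. Which of these genes it measured was not tested.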

How the results depend on the processing

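The difference of Ly6d ranged from 4.88 to 5.77 when arrays were left out in turn and from 5.16 to 5.42 under the other alternatives. The number of Ly6 probe sets called ranged from 1 to 5 when arrays were left out, and it was 1 without moderation and 5 with array weights. The count over all probe sets ranged from 3259 to 7112 when arrays were left out, and it was 7673 with array weights, 2892 without moderation and 3486 with 1 probe set a gene, where 12393 genes were tested. The fit with 1 probe set a gene had fewer features, and its share called was 28.1%, beside 25.0% in the main fit. Fits without an array held fewer livers. The cause of these shifts was not tested. With the replicate number as a block the fit called 5471 probe sets and 4 Ly6 probe sets. Deviations of arrays with the same number correlated at 0.14, 0.08 and 0.02, and not every array correlated best with its own number, so the numbers were not taken as pairs. Of 871 alternative values for 64 named genes outside the family, 781 kept their direction and side of the threshold, 56 lost a call, 14 gained one and 20 turned in sign. None of those that turned was called in either fit. With a second quantile normalisation these were Itgam at 0.0044, Des at -0.0013 and Alb at 0.039, with median centring Krt7 at -0.0152, and with array weights Cd3d at -0.0064, Krt7 at -0.037 and Alb at 0.000604. With single arrays left out, the differences ran from -0.11 to 0.015 for Mpo, from -0.18 to 0.058 for Cd79a, from -0.039 to 0.077 for Cd3d, from -0.14 to 0.033 for Cd3g, from -0.068 to 0.078 for Krt7, from -0.57 to 0.046 for Lrat, from -0.025 to 0.0072 for Alb, from -0.051 to 0.11 for Tfeb and from -0.093 to 0.022 for Slurp1. The probe sets of Ly6m, Ly6f and Ly6g6d were dim in all livers, and those of Ly6g6c, Ly6h and Ly6i in most, which limits what their differences show.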
